A study of Mus musculus with 4 samples.

Results

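The genes described here encode 9 enzymes of serine, glycine and folate one-carbon metabolism, and were taken by symbol from the 18598 genes listed in the deposited table. All 9 were found, and the list was drawn up with the difference between the genotypes already known, so that difference is given below as a description. RNA was measured in LSK cells, the bone marrow cells that lack lineage markers, carry SCA-1 and c-KIT and hold hematopoietic stem and progenitor cells. The cells came from C57BL/6 mice about 3 months old and were pooled from 5 mice per library, with 2 *Bptf*-cKO libraries (genotype *Bptf* -/-) and 2 control libraries. The study describes the knockout mice as *Bptf* f/f;*Mx1*-cre and the controls of the RNA-seq as *Bptf* f/f littermates, both given polyinosinic-polycytidylic acid (pIpC), with cells sorted 10 days after cre induction. Because *Mx1* is an interferon-responsive promoter and the *Bptf* f/f controls carry no cre, the presence of cre and the loss of *Bptf* cannot be told apart in this design.

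Serine is made from a glycolytic intermediate in the cytosol by PHGDH, PSAT1 and PSPH. Serine hydroxymethyltransferase then splits serine into glycine and a one-carbon unit carried by tetrahydrofolate, and this reaction exists in the cytosol (SHMT1) and in the mitochondrion (SHMT2). Mitochondrial units are oxidised by MTHFD2, released as formate by MTHFD1L or burned to carbon dioxide by ALDH1L2, while the trifunctional MTHFD1 handles the same carriers in the cytosol, where they feed purine, thymidylate and methionine synthesis. In proliferating cells the mitochondrial arm is known as the main source of formate.

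Values are reads per gene divided by 1 size factor per library (normalized counts). The libraries held between 14091054 and 30134742 reads on listed genes. Differences are *Bptf*-cKO minus control on the log2 scale of the normalized count plus 1, which understates the change of low genes, with the standard error (SE) of a limma fit over the 14858 genes that had a mean of at least 10. Adjusted p-values are two-sided and Benjamini-Hochberg adjusted over all of these genes, and with 2 libraries per genotype an exact permutation test of 1 gene could not give a p below 0.333. *Bptf*, the targeted gene, had 5520 and 5850 normalized counts in the control libraries and 3398 and 3320 in the *Bptf*-cKO libraries, a log2 difference of -0.76 (SE 0.0898, limma adjusted p = 0.0439, and 0.0531 with edgeR). Replicate 2 of both genotypes stood apart by markers of pluripotent cells: the 6 markers summed to 922 and 1177 normalized counts in control and *Bptf*-cKO replicate 2 and to 3.88 and 5.20 in the replicate 1 libraries, where *Pou5f1* had none. Control replicate 2 was the lowest of the 4 libraries in the summed count of the 8 granulocyte and monocyte markers (11896, against 46482 to 58953 in the others), though not in each marker. Control replicate 1 was the highest in the summed count of the 5 B cell markers (6804, against 1784 to 3810 in the others). The 8 immediate-early genes summed to 66941 and 163589 normalized counts in control replicates 1 and 2 and to 22969 and 27508 in *Bptf*-cKO, so that both controls lay above both *Bptf*-cKO libraries. All 8 had negative log2 differences (median -1.68). Of these limma and edgeR called 0 and DESeq2 called 5 lower, where it called 3.01% of all genes lower. At an unadjusted p under 0.05 limma had 6 of the 8 lower, where 8.96% of all tested genes were. The LSK markers *Kit*, *Ly6a* and *Cd34* were present in every library, with log2 differences of -0.01, 0.09 and -0.21. Of all 7 LSK markers read, 6 had negative log2 differences (median -0.758), where 7400 of the 14858 tested genes did (median 0.001). Among the 7, limma called 1 lower, where 0.740% of all tested genes were called in either direction. *Epor*, among 6 erythroid markers, was lower in *Bptf*-cKO (log2 difference -1.96, limma adjusted p = 0.0443, and 0.0513 with edgeR). The calls of *Bptf* and *Epor* were lost when any 1 library was left out (limma adjusted p from 0.0647 to 0.316 and from 0.0847 to 0.299). No marker of the 8 granulocyte and monocyte, 5 B cell, 1 tested T cell and 4 megakaryocyte genes passed with limma. *Ctsg*, a granule protease gene named after its values were seen, had 2652 and 674 normalized counts in the controls and 10040 and 9445 in *Bptf*-cKO, so that the groups did not overlap (log2 difference 2.86, SE 0.614, limma adjusted p = 0.128). Of the 8 granulocyte and monocyte markers, 4 had positive and 4 had negative log2 differences (median -0.049), and in all but *Ctsg* the groups overlapped. Fewer cells of a type and less RNA per cell cannot be told apart in such bulk samples, and the part of cell composition and of the immediate-early genes in the results below was not tested.

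All 9 enzyme genes had higher normalized counts in each *Bptf*-cKO library than in either control library. The size of the difference ran from 1.09 times for *Mthfd1* to 251 times for *Aldh1l2* in the ratio of mean normalized counts. The mitochondrial genes *Aldh1l2*, *Mthfd2* and *Shmt2* and the serine synthesis genes *Psat1*, *Psph* and *Phgdh* lay above a 1.5-fold difference, and the cytosolic *Shmt1* and *Mthfd1* and the mitochondrial *Mthfd1l* lay below it. *Phgdh* (1.66 times) was the gene just above that line and *Mthfd1l* (1.28 times) the gene just below it. Over all tested genes, 23.2% had both *Bptf*-cKO libraries higher than both control libraries, as all 9 enzyme genes did. With the threshold set at an adjusted p of 0.05 together with a 1.5-fold change, limma called 3 of the 9, *Aldh1l2*, *Mthfd2* and *Shmt2*, where 0.370% of all tested genes were called higher. edgeR also called 3 (0.330% of all genes). Without *Bptf*-cKO replicate 1, or without *Bptf*-cKO replicate 2, 0 of the 9 and 1 gene among all tested were called higher. The log2 differences without these libraries were 7.83 and 7.57 for *Aldh1l2*, 2.42 and 2.30 for *Mthfd2* and 1.33 and 1.16 for *Shmt2*. DESeq2 on the recovered reads called 6 of the 9, where it called 1.73% of all genes higher. Since the genes were chosen on this contrast, their counts are not evidence beyond it.

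**Figure D1:**
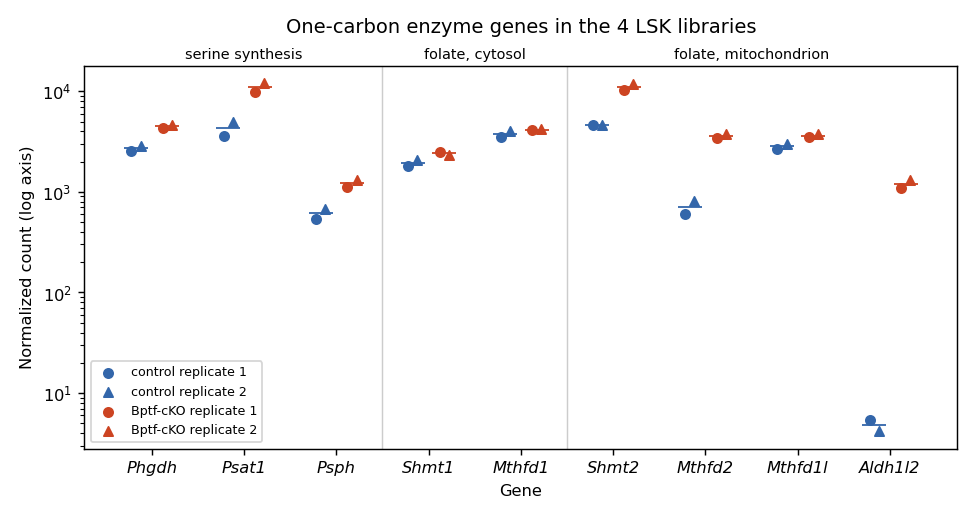
Normalized counts (log axis) of the 9 enzyme genes in the 4 libraries, with circles for replicate 1, triangles for replicate 2 and a line at the mean of each genotype. In each gene both red *Bptf*-cKO points lie above both blue control points, and *Aldh1l2* is the gene with the widest gap, from 4.16 and 5.43 to 1096 and 1305.

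*Phgdh*, on chromosome 3 from 98313170 to 98339990 (minus strand, GENCODE vM21 on GRCm38), encodes the dehydrogenase that opens serine synthesis. It had 2561 and 2845 normalized counts in the control libraries, replicate 1 given first here and below, and 4305 and 4674 in *Bptf*-cKO. The groups did not overlap, and the gap between them was wider than the gap within either group. The log2 difference was 0.73 (SE 0.105), with values of 0.75 and 0.72 when libraries of the same number were compared. *Phgdh* has an annotated processed pseudogene, *Phgdh-ps1*, which is not among the listed genes, so reads shared with it cannot be judged here.

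*Psat1*, the aminotransferase of the pathway, lies on chromosome 19 from 15904678 to 15947337 (minus strand). It had 3571 and 5001 normalized counts in the controls and 9842 and 12078 in *Bptf*-cKO. The control libraries differed by 40.0%, the widest such gap among the 9 genes, and still both lay far under the *Bptf*-cKO libraries. The log2 difference was 1.37 (SE 0.194), the largest of the 3 serine synthesis genes. *Psph*, the phosphatase that releases serine, lies on chromosome 5 from 129765558 to 129787449 (minus strand) and was the least expressed of the 3 with 542 and 682 against 1121 and 1318 normalized counts. Its mean was 1.99 times higher in *Bptf*-cKO, a log2 difference of 1.00 (SE 0.165), from at least 492 reads in every library. *Psph* shares 452 exon bases with *Cct6a* on the other strand, and *Cct6a* had overlapping groups, with 6737 and 8442 against 7737 and 7666 normalized counts.

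*Shmt1*, the cytosolic serine hydroxymethyltransferase, lies on chromosome 11 from 60788104 to 60811718 (minus strand). It had 1791 and 2076 normalized counts in the controls and 2481 and 2346 in *Bptf*-cKO. Its groups were close, and the log2 difference of 0.32 (SE 0.114) split into 0.47 for the libraries numbered 1 and 0.18 for those numbered 2. *Shmt1* shares 184 exon bases with *Smcr8* on the other strand. *Smcr8* had 1343 and 1361 normalized counts in the controls and 1579 and 1498 in *Bptf*-cKO (log2 difference 0.19, limma adjusted p = 0.45), so its groups did not overlap either. Whether shared reads had a part in the difference of *Shmt1* was not tested. *Mthfd1*, on chromosome 12 from 76255298 to 76319803 (plus strand), had 3548 and 4053 normalized counts in the controls and 4104 and 4193 in *Bptf*-cKO. The gap between the groups was smaller than the gap between the 2 control libraries, and the log2 difference of 0.13 (SE 0.105) was the smallest of the 9. *Mthfd1* had at least 2924 reads in every library, so few reads were not what limited its precision.

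*Shmt2*, the mitochondrial hydroxymethyltransferase, lies on chromosome 10 from 127517123 to 127522444 (minus strand). It had 4638 and 4642 normalized counts in the controls and 10344 and 11690 in *Bptf*-cKO. The controls were almost equal and every *Bptf*-cKO value was more than 2 times higher. The log2 difference was 1.24 (SE 0.101), with 1.16 and 1.33 in the replicate 1 and replicate 2 pairs.

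*Mthfd2*, the mitochondrial dehydrogenase and cyclohydrolase, lies on chromosome 6 from 83305691 to 83325908 (minus strand). It had 598 and 815 normalized counts in the controls and 3447 and 3746 in *Bptf*-cKO. Its mean was 5.09 times higher in *Bptf*-cKO, a log2 difference of 2.36 (SE 0.171) that ranked 99 by size of rise among the 14858 genes. *Mthfd1l*, the formate-releasing synthetase that acts next in the same compartment, lies on chromosome 10 from 3973118 to 4167081 (plus strand) and did not follow in size. It had 2651 and 3014 normalized counts in the controls and 3476 and 3766 in *Bptf*-cKO, a log2 difference of 0.36 (SE 0.110) close to that of *Shmt1*.

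*Aldh1l2*, the mitochondrial formyltetrahydrofolate dehydrogenase, lies on chromosome 10 from 83487450 to 83534140 (minus strand). It was near the limit of detection in the controls, with 7 and 3 reads (5.43 and 4.16 normalized counts), and had 1686 and 925 reads (1096 and 1305 normalized counts) in *Bptf*-cKO. Its log2 difference of 7.70 (SE 0.282) ranked 1 among all tested genes, and *Aldh1l2* passed the filter on low values only through the *Bptf*-cKO libraries. From the summed reads and size factors the ratio was 234, with an exact binomial 95% interval of 127 to 488 that covers counting error only. *Aldh1l2* shares 1056 exon bases with *D10Wsu102e* on the opposite strand. That neighbour stood between 2163 and 2340 normalized counts in all 4 libraries.

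**Figure D2:**
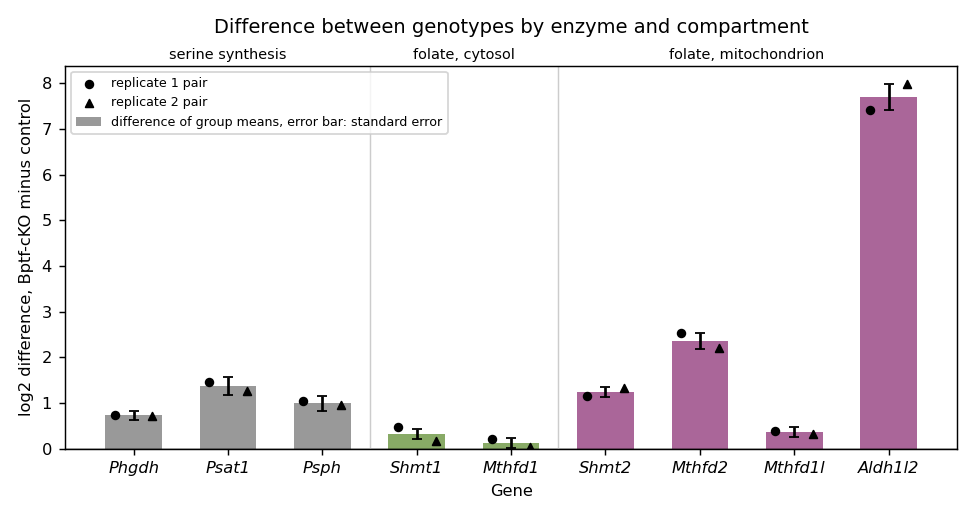
Log2 differences (*Bptf*-cKO minus control, log2 of the normalized count plus 1) of the 9 genes, with bars for the difference of group means, error bars for its standard error, and symbols for the replicate 1 and replicate 2 pairs. The mitochondrial genes span 0.36 to 7.70, the serine synthesis genes 0.73 to 1.37 and the cytosolic folate genes 0.13 to 0.32.

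The replicate 1 pair, in which *Pou5f1* had no reads, gave differences of the same direction in all 9 genes and of similar size in most of them. *Mthfd2* differed by 2.53 and 2.20 between libraries numbered 1 and 2, respectively, *Psat1* by 1.46 and 1.27, and *Psph* by 1.05 and 0.95. *Aldh1l2* differed by 7.42 and 7.98 on the same log2 scale, and *Mthfd1l* by 0.39 and 0.32. *Mthfd1* differed by 0.21 and 0.05, so that its difference nearly vanished in the replicate 2 pair.

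The mitochondrial and cytosolic folate enzymes were contrasted within each library, where the size factor cancels apart from the pseudocount. The serine synthesis genes *Phgdh*, *Psat1* and *Psph*, whose enzymes are also cytosolic, were not part of this balance. Their log2 differences were 0.73, 1.37 and 1.00, so the shift below describes the folate enzymes and not the compartments as such. The mean log2 level of *Shmt2*, *Mthfd2*, *Mthfd1l* and *Aldh1l2* minus that of *Shmt1* and *Mthfd1* was -2.43 and -2.56 in the controls and 0.10 and 0.29 in *Bptf*-cKO. This was a shift of 2.69 with a pooled SD of 0.114 between libraries of a genotype (n = 2 each). The counts here are not corrected for transcript length, so the sign of a balance does not say which set was more abundant. Most of that shift came from *Aldh1l2*, and without it the balance was -0.37 and -0.37 in the controls and 0.64 and 0.81 in *Bptf*-cKO, a shift of 1.09. No test is given, since this contrast was part of the choice of genes.

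The isoenzyme pairs shifted by unequal amounts. The log2 ratio of *Shmt2* to *Shmt1*, which catalyse the same reaction in the 2 compartments, was 1.37 and 1.16 in the controls and 2.06 and 2.32 in *Bptf*-cKO. The ratio of *Mthfd2* to *Mthfd1* was -2.57 and -2.31 in the controls and -0.25 and -0.16 in *Bptf*-cKO, the larger of these shifts. The ratio of *Mthfd1l* to *Mthfd1* was -0.42 and -0.43 in the controls and -0.24 and -0.16 in *Bptf*-cKO, a shift of 0.23 only. The groups did not overlap in any of these 3 ratios.

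The close relatives of the 2 genes with the largest differences moved differently. *Mthfd2l*, a second mitochondrial dehydrogenase of this type, had 222 and 144 normalized counts in the controls and 205 and 148 in *Bptf*-cKO (log2 difference -0.04, SE 0.305, limma adjusted p = 0.972). It followed the replicate number and not the genotype, while the log2 ratio of *Mthfd2* to *Mthfd2l* went from 1.42 and 2.49 to 4.06 and 4.65. *Aldh1l1*, the cytosolic counterpart of *Aldh1l2*, had 465 and 520 normalized counts in the controls and 265 and 358 in *Bptf*-cKO (log2 difference -0.67, SE 0.199, limma adjusted p = 0.218). In normalized counts, not corrected for transcript length, *Aldh1l1* was the higher of this pair in both controls and *Aldh1l2* in both *Bptf*-cKO libraries. The log2 ratios of *Aldh1l2* to *Aldh1l1* were -6.18 and -6.66 against 2.04 and 1.86.

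**Figure D3:**
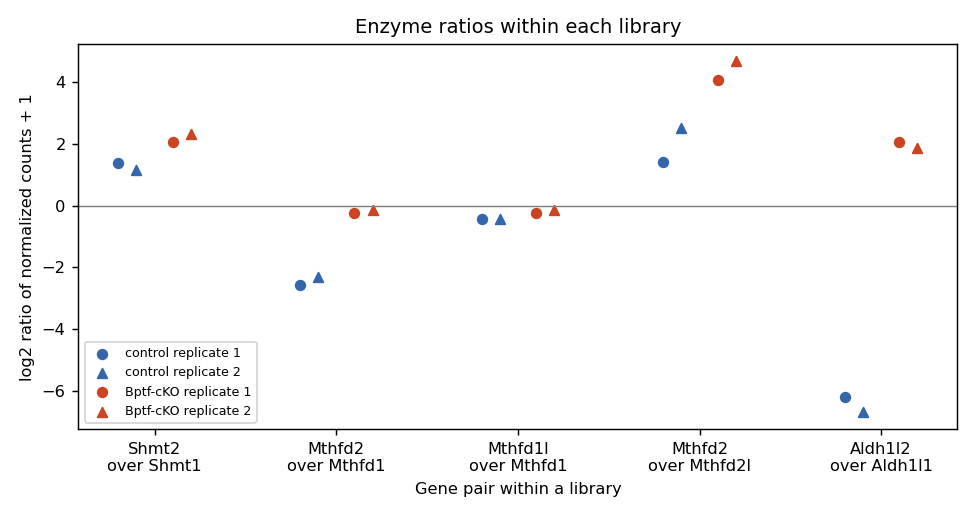
Log2 ratios of normalized counts plus 1 between pairs of genes, computed within each library, with blue for control and red for *Bptf*-cKO. The *Mthfd1l* to *Mthfd1* ratio shifted by 0.23, the *Shmt2* to *Shmt1* ratio by 0.92, the *Mthfd2* to *Mthfd1* ratio by 2.23 and the *Aldh1l2* to *Aldh1l1* ratio by 8.37.

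Levels of different genes were compared per kilobase of the longest annotated transcript. In the controls *Shmt2* was the highest of the 9 at 2026 and 2028 normalized counts per kb. *Psat1* (1365 and 1911) and *Phgdh* (1353 and 1503) overlapped next in the order and were followed by *Mthfd1* at 1095 and 1250. *Mthfd1l* (719 and 818) and *Shmt1* (627 and 726) overlapped below them. *Mthfd2* stood at 287 and 391, *Psph* at 188 and 237 and *Aldh1l2* at 0.900 and 0.690 normalized counts per kb. The order in *Bptf*-cKO was the same except that *Mthfd2*, at 1653 and 1797 normalized counts per kb, stood above *Mthfd1* at 1266 and 1294. *Shmt2* (4519 and 5107) and *Psat1* (3761 and 4615) now overlapped at the top, and *Aldh1l2* remained the lowest at 182 and 217. The 4 mitochondrial genes made up 63.8% and 62.1% of the summed level per kb of the 6 folate enzyme genes in the controls and 77.4% and 79.4% in *Bptf*-cKO.

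The 5 genes whose profile over the 4 libraries was closest to that of *Mthfd2*, by root-mean-square distance between log2 values centred on each gene's mean, were *Adamts20*, *Perp*, *Lama4*, *Eda2r* and *Elovl2*, at distances from 0.108 to 0.148. *Adamts20* (8 and 6 reads), *Lama4* (8 and 5) and *Elovl2* (12 and 7) had few reads in the controls, so their places in this order are uncertain. *Perp*, known as a p53-responsive gene, had 67.4 and 80.4 normalized counts in the controls and 420 and 433 in *Bptf*-cKO. The 5 closest to *Psat1* were *Aars*, *Dubr*, *Cars*, *Extl1* and *Inpp4b*, at distances from 0.0555 to 0.0890. *Aars* and *Cars* encode cytosolic aminoacyl-tRNA synthetases, and *Aars* had 2366 and 3167 normalized counts in the controls and 6909 and 7812 in *Bptf*-cKO. Like *Psat1*, it was higher in replicate 2 than in replicate 1 of both genotypes.

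Other genes of one-carbon metabolism were read from 4 lists of 54 genes, which hold none of the 9 enzymes. Of these, 47 were listed in the table and 45 passed the filter on low values. At the threshold above, limma called 0 of the 45 (0.740% of all tested genes, either direction), edgeR 0 (0.633%) and DESeq2 0 (4.74%). At an unadjusted p under 0.05, limma had 7 of the 45 higher and 3 lower, where 6.79% and 8.96% of all tested genes were. The numbers were 5 and 3 with edgeR and 3 and 3 with DESeq2, for which no share over all genes is given here. The median log2 difference of the 45 genes was 0.062, beside 0.001 over all tested genes and 1.00 over the 9 enzymes.

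Among 14 tested genes of the folate cycle and folate uptake, *Ggh*, the lysosomal hydrolase that trims folate polyglutamates, had the largest positive difference. It had 433 and 453 normalized counts in the controls and 599 and 773 in *Bptf*-cKO (log2 difference 0.62, SE 0.169, limma adjusted p = 0.193), and *Aldh1l1*, above, had the largest negative one. *Tyms*, which makes thymidylate, had a log2 difference of 0.05 (limma adjusted p = 0.941). *Slc19a1*, the reduced folate carrier, had a log2 difference of 0.27 (limma adjusted p = 0.312).

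Among 11 tested genes of glycine cleavage and other serine and glycine steps, *Gldc*, the decarboxylase of the mitochondrial glycine cleavage system, had a log2 difference of 1.52 (SE 0.903, limma adjusted p = 0.493) that rested on few reads, with 3 and 12 reads in the controls and 32 and 15 in *Bptf*-cKO. The more abundant cleavage genes *Dld*, *Gcsh* and *Amt* had log2 differences of 0.03, 0.24 and 0.06, none past the test. *Gcat*, the glycine C-acetyltransferase of threonine breakdown, had the largest negative difference, with 383 and 527 normalized counts against 213 and 326 (log2 difference -0.77, SE 0.277, limma adjusted p = 0.283). *Sdsl*, a serine dehydratase-like gene, had 773 and 678 against 476 and 521 (-0.54, limma adjusted p = 0.179). *Sfxn1*, which carries serine into the mitochondrion, had 3383 and 3437 against 3697 and 3623 (0.10, limma adjusted p = 0.643).

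In the methionine cycle, where 7 genes were tested, *Mtap*, the methylthioadenosine phosphorylase, had the largest positive difference (0.43, SE 0.152, limma adjusted p = 0.279) and *Ahcy*, the adenosylhomocysteine hydrolase, the largest negative one (-0.14, SE 0.212, limma adjusted p = 0.817), which was 0.13 without control replicate 2. The median over the 7 genes was 0.034. Among 13 genes of purine synthesis, *Atic*, which uses formyltetrahydrofolate near the end of the pathway, went from 5346 and 5871 to 6485 and 7249 normalized counts (log2 difference 0.29, SE 0.107, limma adjusted p = 0.288). *Gart*, the other formyl-using enzyme, had a log2 difference of 0.29 (limma adjusted p = 0.317), and *Adssl1* had the largest negative value of the list (-0.39, SE 0.232, limma adjusted p = 0.491).

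**Figure D4:**
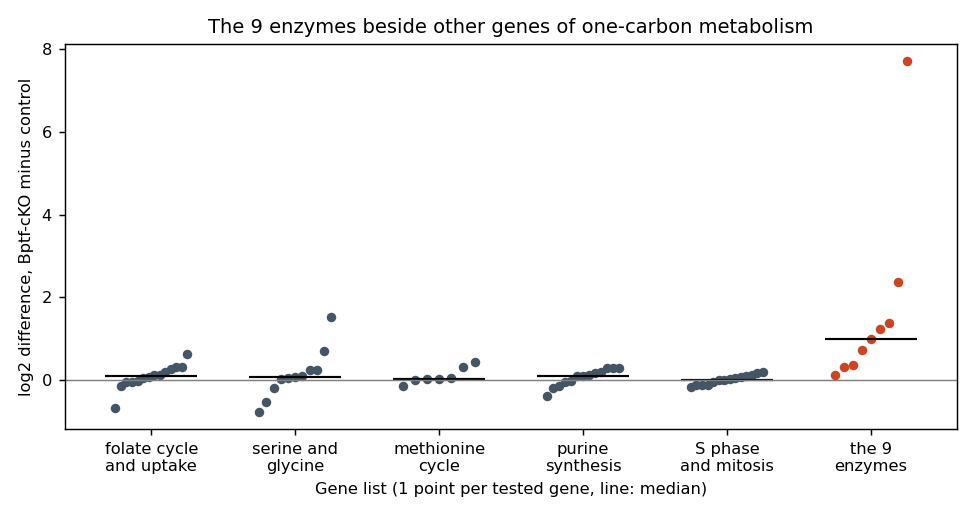
Log2 differences (*Bptf*-cKO minus control) of tested genes in 4 lists of one-carbon metabolism, in a list of S phase and mitosis genes and in the 9 enzymes (red), with a line at each list's median. The medians of the 5 lists lie between 0.009 and 0.093, and that of the 9 enzymes, which were chosen on this difference, at 1.00.

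Folate enzymes are known to rise with proliferation, so 14 genes of S phase and mitosis were read beside them. The part of proliferation in the differences of the 9 enzymes was not tested. None of the 14 was called by limma, edgeR or DESeq2, where 0.740%, 0.633% and 4.74% of all tested genes were called, and nothing is read from a count of 0 among 14 at such shares. None had an unadjusted p under 0.05 with any of these tools. At that p limma had 6.79% of all tested genes higher and 8.96% lower, and the shares of edgeR and DESeq2 are not given here. Their summed count was 111471 and 138765 normalized counts in the controls and 118895 and 135731 in *Bptf*-cKO, so that the sum followed the replicate number rather than the genotype. *Mki67* and *Top2a* made up most of that pattern, and others of the list, such as *Mcm2*, *Mcm6* and *Rrm2*, were lower in replicate 2 of both genotypes. *Mki67* had the largest positive difference (0.19, SE 0.376, limma adjusted p = 0.868) and *Pcna* the largest negative one (-0.16, SE 0.113, limma adjusted p = 0.564), and the difference of *Mki67* was -0.26 without control replicate 1 and -0.19 without *Bptf*-cKO replicate 2.

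Of the factors known to act on these genes, ATF4 switches on serine and mitochondrial folate genes in amino acid stress, and MYC and NRF2 (*Nfe2l2*) are also known to raise them. *Atf4* had 6633 and 8840 normalized counts in the controls and 8852 and 9469 in *Bptf*-cKO (log2 difference 0.26, SE 0.156, limma adjusted p = 0.501). *Myc* had 7199 and 4685 against 7173 and 6861 (0.27, SE 0.209, limma adjusted p = 0.603), with control replicate 2 low, and its difference was -0.04 without that library. *Mycn* and *Nfe2l2* had log2 differences of 0.14 and 0.16, and none of the 4 genes passed the test. ATF4 is known to be controlled largely at translation, which these data do not measure.

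Promoter sequence was taken from RefSeq on GRCm38.p6, which held 9 windows of 300 bases for 8 of the enzyme genes (2 for *Psat1*). *Aldh1l2*, the gene with the largest difference, had no window, so its promoter was not read and the motif counts below do not cover it. The 250 bases before the RefSeq start of the window are shown for *Psat1*, *Shmt2* and *Mthfd2*, whose RNA differed by more than 2 times, and for *Mthfd1*, whose RNA differed least. Sequences run 5′ to 3′ on the gene's strand, and capitals mark CCAAT and GGGCGG on either strand, core promoter motifs chosen after the motif counts below had been seen. For *Psat1* and *Mthfd2* the RefSeq start lies inside the GENCODE gene given above, whose outermost start is farther upstream. The windows are chr19:15925060-15925309 (minus), chr10:127522445-127522694 (minus), chr6:83317605-83317854 (minus) and chr12:76254982-76255231 (plus).
Psat1: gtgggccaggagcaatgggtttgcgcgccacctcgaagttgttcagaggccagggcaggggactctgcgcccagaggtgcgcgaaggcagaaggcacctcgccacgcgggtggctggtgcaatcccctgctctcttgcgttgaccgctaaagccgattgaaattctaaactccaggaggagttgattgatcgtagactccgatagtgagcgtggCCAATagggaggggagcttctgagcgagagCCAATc
Shmt2: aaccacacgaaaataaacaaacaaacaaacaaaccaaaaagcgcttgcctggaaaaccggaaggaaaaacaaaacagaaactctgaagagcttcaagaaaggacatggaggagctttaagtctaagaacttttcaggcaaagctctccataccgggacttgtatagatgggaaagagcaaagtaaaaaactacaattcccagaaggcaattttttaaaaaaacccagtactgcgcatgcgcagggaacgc
Mthfd2: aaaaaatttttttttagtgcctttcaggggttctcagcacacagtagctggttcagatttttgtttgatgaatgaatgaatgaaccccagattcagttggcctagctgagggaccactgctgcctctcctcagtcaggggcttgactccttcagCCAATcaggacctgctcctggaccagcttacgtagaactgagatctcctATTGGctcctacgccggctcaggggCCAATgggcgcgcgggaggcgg
Mthfd1: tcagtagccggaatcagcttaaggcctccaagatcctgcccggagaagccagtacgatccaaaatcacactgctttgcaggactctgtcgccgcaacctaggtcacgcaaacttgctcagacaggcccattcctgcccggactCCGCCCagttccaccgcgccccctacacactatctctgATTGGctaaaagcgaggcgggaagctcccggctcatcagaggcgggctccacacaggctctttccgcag

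TGATGNAA, the core of the C/EBP-ATF response element, was found in none of the 9 windows on either strand, and 3.97% of 32851 RefSeq promoter windows of the same length held it. TGACGTCA (the cAMP response element) and CACGTG (the E-box) were also found in none of the 9, with 1.79% and 7.15% of all windows holding them. No match says only that these letters are not in these windows. CCAAT was found in 6 of the 9 windows and GGGCGG in 5, beside 37.4% and 35.7% of all windows. In the printed 250 bases *Mthfd2* had 3 CCAAT motifs, *Psat1* had 2 and *Mthfd1* had 1 of each motif, and *Shmt2* had none of either.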

How the data were processed

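LSK RNA was measured in 4 libraries. The authors deposited a table of gene counts divided by 1 size factor per library, used here as a normalized signal per gene, beside their own fold changes, standard errors and p-values of *Bptf*-cKO against control, which were not used. The submitters' processing notes name HISAT2, featureCounts and DESeq2 and the builds GRCm38 and mm10, and whether counting used strand is not given in the sources used here. Dividing each library by its lowest value above 0 gave whole reads for 100% of the entries (tolerance 0.01 reads), and every listed gene had at least 11 reads in total.

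Genes with a mean of at least 10 (14858 of 18598) were compared as log2 of the value plus 1 with limma 3.58.1 (trend of variance with mean, a genotype term alone, Benjamini-Hochberg adjustment) in R 4.3.3. edgeR 4.0.16 (quasi-likelihood test, TMM factors) and DESeq2 1.42.0 were run on the recovered reads as alternatives, all tested on simulated data. The remaining alternatives were a pseudocount of 0.5 or 10, no filter, a mean of at least 50, recentred or quantile-normalized libraries, no trend, the replicate number as a block, and each library left out. Coordinates and transcript lengths came from GENCODE vM21, matched by symbol. Python 3.11.15 and scipy 1.17.1 summarised the fits.

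Members and lists were chosen with earlier results of these data known. Named genes were the 9 enzymes, *Bptf*, list genes past an adjusted p of 0.05, the largest rise and fall of each pathway list, and the 5 genes closest in profile to *Mthfd2* and to *Psat1*. Other list genes were named after their values were seen. The single-gene results of 2 list genes are not reported here.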

Additional observations from a re-analysis of the deposited data

How the results depend on the processing

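The 9 enzyme genes kept the direction of their difference under every alternative run, with *Aldh1l2* between 6.35 and 7.98 and *Mthfd1* between 0.03 and 0.23. The number of the 9 called was 3, and it was 6 with DESeq2, 6 with the replicate block, 1 with limma without the trend, and between 0 and 4 with a library left out. Over all genes 55 were called higher and 55 lower. DESeq2 called 252 and 438, limma without the trend 2 and 0, limma with the replicate block 454 and 845, and the fits that left out a library between 1 and 76 higher and between 0 and 41 lower (1 and 0 without *Bptf*-cKO replicate 1, 1 and 0 without *Bptf*-cKO replicate 2, and 17 lower without control replicate 2). A fit without a *Bptf*-cKO library assumes that the lone one varies as the controls do. The cause of these changes was not tested. The mitochondrial minus cytosolic difference of 2.69 was 2.35 with a pseudocount of 10 and 1.09 without *Aldh1l2*, an alternative added after seeing the data, as were the values within pairs.

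The sample labels number the libraries 1 and 2 in both genotypes and state no pairing. The deviations of same-numbered libraries from their group means had a correlation of 0.452 over 14858 genes. With the replicate block in limma 3 of the 45 other one-carbon genes were called (0 without it). *Ggh* was higher (adjusted p = 0.00926) and *Aldh1l1* (0.0109) and *Gcat* (0.00589) were lower. Over all 14858 genes the block called 454 higher and 845 lower, and nothing is read from 3 of 45 beside these numbers. The block also called *Ctsg* (8.34e-05) and 2 other granulocyte and monocyte markers higher, and *Pf4* (0.00646) lower. With a library left out, the differences of *Ahcy* (-0.42 without control replicate 1 to 0.13 without control replicate 2), *Mki67* (-0.26 without control replicate 1 to 0.65 without control replicate 2, and -0.19 without *Bptf*-cKO replicate 2) and *Myc* (-0.04 without control replicate 2 to 0.58 without control replicate 1) changed sign. The call of *Bptf* was lost with edgeR, with recentred libraries, without the trend and without any 1 library, at log2 differences from -0.80 to -0.71. Depth limits *Aldh1l2* and *Gldc*, which had 3 reads in their lowest library. It also limits *Adamts20*, *Lama4* and *Elovl2*, with 6, 5 and 7 reads in theirs.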
